A study of Homo sapiens with 42 samples.

Results

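Untreated acute lymphoblastic leukaemia (ALL) cell lines were compared in groups chosen by their measured level of ASNS, the enzyme that makes asparagine from aspartate. The low group held SUPB15, RS411 and DND41, whose mean ASNS level was under 5 CPM (counts-per-million). The expressing group held Nalm6, REH, 697 and CEM, all above it. The comparison used 21 of the 42 libraries of the series, 9 from the 3 low lines and 12 from the 4 expressing lines, and the lines, not the libraries, were the units. All lines are human and were grown in RPMI-1640 with serum and glutamine. The other 21 libraries came from the same lines exposed to L-asparaginase (1 IU/ml) during 4 h, with 3 experiments for each line and treatment. Each line is a single established culture with its own lesions, so that a difference between the groups is a difference between 3 and 4 cultures. DND41 and CEM come from T-cell leukaemia and the other 5 from B-cell precursor leukaemia, so each group held 1 T line. The samples of SUPB15, RS411 and Nalm6 are numbered apart from those of the other lines, so the groups share these sets unequally. The sample labels do not say whether the sets are batches, and this was not tested.

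L-asparaginase is an enzyme drug for ALL that breaks down asparagine outside the cell. Lymphoblasts that make little asparagine of their own depend on that supply, whereas cells with ASNS can replace it. When amino acids run short, the kinase GCN2 slows protein synthesis and favours the transcription factor ATF4, which turns on ASNS, amino acid transporters, enzymes of serine synthesis and the stress genes DDIT3 and TRIB3. Silencing of ASNS by DNA methylation of its promoter is known in ALL. Methylation was not measured in these libraries.

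The untreated libraries held 22.68 to 77.14 M counts (mega counts), with a median of 37.94 M. By median marker level the lines matched their lineage: the median level of 10 T-lineage markers was 183 CPM in DND41 and 187 CPM in CEM, and at most 0.08 CPM in the 5 others. The median of 10 B-lineage markers was 119 to 303 CPM in the B-precursor lines and 4.24 and 7.4 CPM in DND41 and CEM. Summed T markers were 2290 and 2260 CPM in DND41 and CEM and 8.62 to 103 CPM elsewhere. Summed B markers did not follow lineage in DND41 (2670 CPM, of which RAG1 gave 1480 and CD79A 897), beside 1580 to 3390 CPM in the B-precursor lines and 365 CPM in CEM, while PAX5 and CD22 were at 0 in DND41. Summed levels of 8 myeloid markers were 0.182 to 13.1 CPM in the low lines and 1.94 to 47.9 CPM in the expressing lines, and 6 erythroid markers summed to at most 0.206 CPM in any line. Summed levels of 6 stromal markers were 6.27 to 45.9 CPM in the low and 0.532 to 56.7 CPM in the expressing lines. In the 3 low lines, Nalm6 and 697, the first of the untreated libraries stood apart from its line. The departures of these 5 libraries from their line means correlated over genes with a median r of 0.71, genes not being independent.

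ASNS chose the groups, so its levels are a description. It read 1.06, 1.63 and 1.15 CPM in the 3 untreated libraries of SUPB15, 1.48, 1.26 and 1.35 in RS411, and 1.45, 2.01 and 1.79 in DND41. In the expressing group it read 14.7, 17.3 and 15.2 CPM in CEM, 38.1, 52.9 and 44.8 in 697, 73.8, 75.5 and 59.9 in REH, and 50.3, 115 and 61.9 in Nalm6. The means were 1.28 ± 0.304 (SD, n = 3) in SUPB15, 1.36 ± 0.114 in RS411, 1.75 ± 0.282 in DND41, 15.7 ± 1.39 in CEM, 45.3 ± 7.39 in 697, 69.7 ± 8.56 in REH and 75.6 ± 34.2 in Nalm6. DND41 was the nearest line under the limit of 5 CPM and CEM the nearest above it. Within the low group the libraries of the 3 lines overlapped. Nalm6 overlapped with both REH and 697, REH lay above 697, and CEM stood apart from every other line. In bulk RNA, fewer cells that express a gene and less RNA per cell cannot be told apart.

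**Figure D1:**
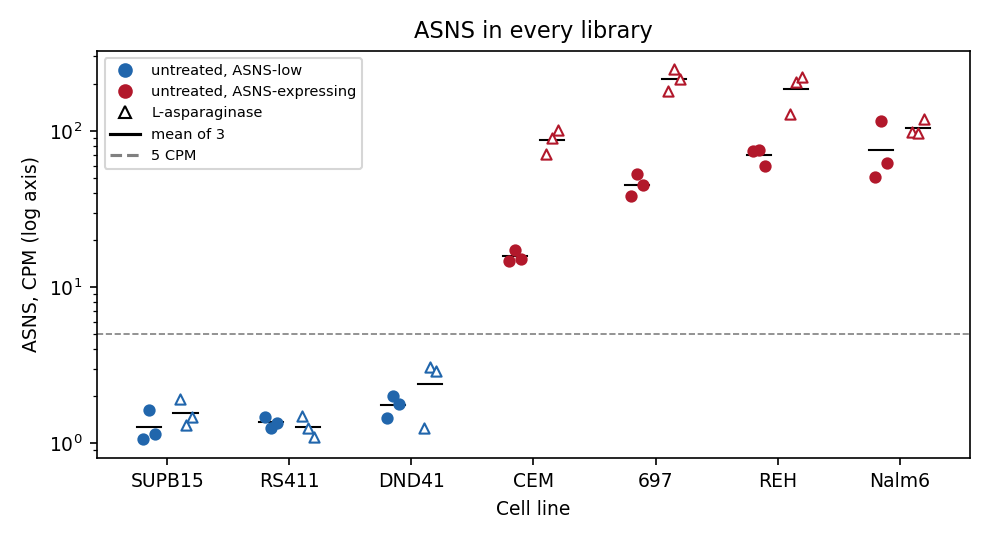
ASNS level in CPM (log axis) for each of the 42 libraries, by line, untreated (filled circles) and after L-asparaginase (open triangles), with the mean of 3 as a bar. The 9 untreated libraries of the low lines sit between 1.06 and 2.01 CPM, under the dashed line at 5 CPM, and the 12 of the expressing lines between 14.7 and 115 CPM.

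Of 19529 genes tested, 59 separated the groups completely: every untreated library of the 3 low lines lay on 1 side of every untreated library of the 4 expressing lines, with a line mean of at least 1 CPM throughout the higher group. Of these, 32 (0.164% of the genes tested) were higher in the expressing lines and 27 (0.138%) were higher in the low lines. Judged on line means alone, 217 (1.11%) and 243 (1.24%) genes separated the groups. A wide gap, at least 2-fold between the nearest lines, was present in 18 of the 32 and in 6 of the 27. The wide gaps ended with CST3 (2.48-fold) and ADGRE2 (2.05-fold), and the genes just outside were AL133493.2 (1.94-fold) and UEVLD (1.89-fold). These counts are fixed by the choice of the genes and carry no test. Without the 5 libraries that stood apart, 149 genes separated the groups and 58 of the 59 were among them, C22orf15 being lost. With 1 line left out, 110 (without REH) to 375 (without DND41) genes separated the groups.

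**Figure D2:**
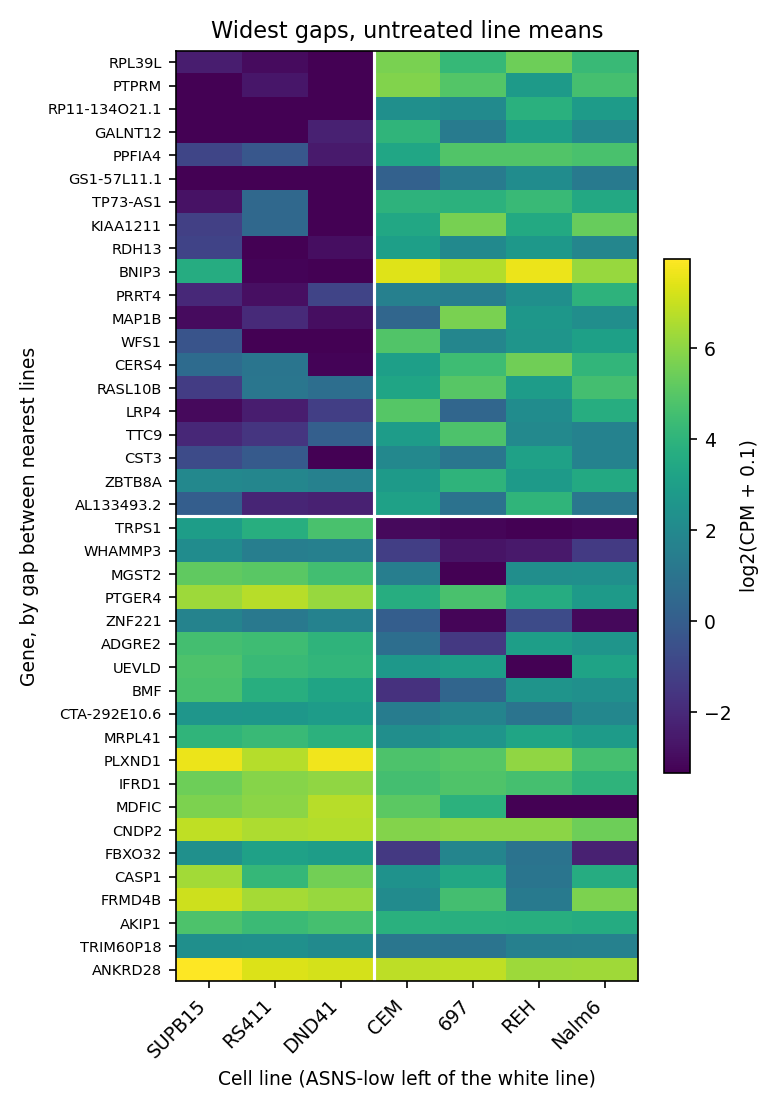
Untreated line means, as log2(CPM + 0.1), of the 20 separating genes with the widest gaps in each direction, the 3 low lines left and the 4 expressing lines right of the white line, ordered by the gap between the nearest lines within each direction. The 20 genes above the horizontal line are higher in the expressing lines and the 20 below it higher in the low lines.

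RPL39L had the largest gap between the nearest lines on the log2(CPM + 0.1) scale. It encodes a variant of a large-subunit ribosomal protein best known from male germ cells, and reads of near-identical relatives make its count uncertain. It read 0 to 0.143 CPM in the 9 low libraries (median 0) and 7.6 to 59.3 CPM in the 12 expressing libraries (median 30.1). SUPB15, the highest low line, had a mean of 0.0858 CPM and 697, the lowest expressing line, 18.8 CPM, a ratio of 219. PTPRM, a receptor tyrosine phosphatase that binds its own kind on neighbouring cells, was at 0 in all libraries of SUPB15 and DND41 and at most 0.106 CPM in RS411. Its expressing libraries read 6.35 to 61.1 CPM (median 25.6), lowest in REH and highest in CEM, and the nearest lines differed 113-fold. For both genes the low lines were close to the detection limit, since 3 counts over the 3 libraries of a line correspond to 0.0186 to 0.0357 CPM.

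A pair of genes of clone-type names, RP11-134O21.1 and GS1-57L11.1, was at 0 in all 9 low libraries. RP11-134O21.1 read 3.37 to 15.9 CPM in the expressing libraries (median 5.77), and its lowest expressing line was at least 183-fold higher than 3 counts over a low line would allow. GS1-57L11.1 read 0.731 to 6.38 CPM (median 2.16) and was at least 46.1-fold higher by the same measure. GALNT12, which starts the mucin-type O-glycosylation of proteins, was at 0 in SUPB15 and RS411, 0.108 CPM in DND41, and 1.57 to 19.2 CPM in the expressing libraries (median 4.87), with a nearest ratio of 23.1. All 3 genes were thus off or nearly off in the low lines, and low to moderate in the others.

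The other expressing-high genes are given by role, a grouping made after the genes were known. PPFIA4, a liprin scaffold protein, read 0.0242 to 1.06 CPM in the low libraries (median 0.359) and 8.58 to 41.3 CPM in the expressing ones (median 23.6), with CEM the lowest of the 4. KIAA1211, a regulator of actin capping, had line means of 0 to 1.31 CPM in the low lines against 10.8 to 49.6 CPM. MAP1B, a microtubule-binding protein, read at most 0.375 CPM in any low library; its expressing libraries ranged from 0.762 CPM in CEM to 70.7 CPM in 697. It thus separated the groups while differing widely among the expressing lines. LRP4, the agrin receptor, RASL10B, a small GTPase, and TTC9 had nearest ratios of 3.69, 3.63 and 3.2. MTSS1L and SPATA13, both linked to the actin cytoskeleton, had narrow gaps of 1.5-fold and 1.48-fold.

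BNIP3, a mitochondrial BH3 protein that directs mitophagy and is induced by hypoxia, was at 0 in all libraries of DND41 and in 2 of 3 libraries of RS411. SUPB15 had 12.6 ± 1.38 CPM (SD, n = 3). The expressing libraries read 37.7 to 336 CPM, with a median of 112 CPM, so that the nearest lines, SUPB15 and Nalm6, differed 5.98-fold. The spread within a line was wide: the mean was 200 ± 120 CPM in REH and 75.2 ± 59.3 in Nalm6. Also higher in the expressing lines were RDH13, a mitochondrial retinol dehydrogenase (nearest ratio 9.45), WFS1, a membrane protein of the endoplasmic reticulum (5.39), CERS4, a ceramide synthase (4.08), and MRPS21, of the mitochondrial ribosome (1.48). WFS1 was at 0 in RS411 and DND41 and had a mean of 0.653 CPM in SUPB15.

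The remaining expressing-high genes were TP73-AS1, which RefSeq lists as the transcribed pseudogene GFOD3P (nearest ratio 8.43), PRRT4 (6.82), CST3, the secreted protease inhibitor cystatin C (2.48), and 11 genes with ratios of 1.21 to 1.94. Among these were the RNA and DNA demethylase ALKBH3, the receptor signalling inhibitor SPRY1, the ISG15 ligase HERC5, the peptide-amidating enzyme PAM, the heparan sulphate epimerase GLCE, the ubiquitin ligase TRIM32, the zinc finger gene ZBTB8A, ANKS6, AL133493.2 and C22orf15. In 12 of the 32 genes every low library was under 1 CPM. TRIM32 was at 0 in SUPB15 yet had 15.3 and 10.6 CPM in RS411 and DND41, and ANKS6 was at 0 in SUPB15 and RS411 and had 4.71 CPM in DND41. For such genes the low group was not uniform.

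**Figure D3:**
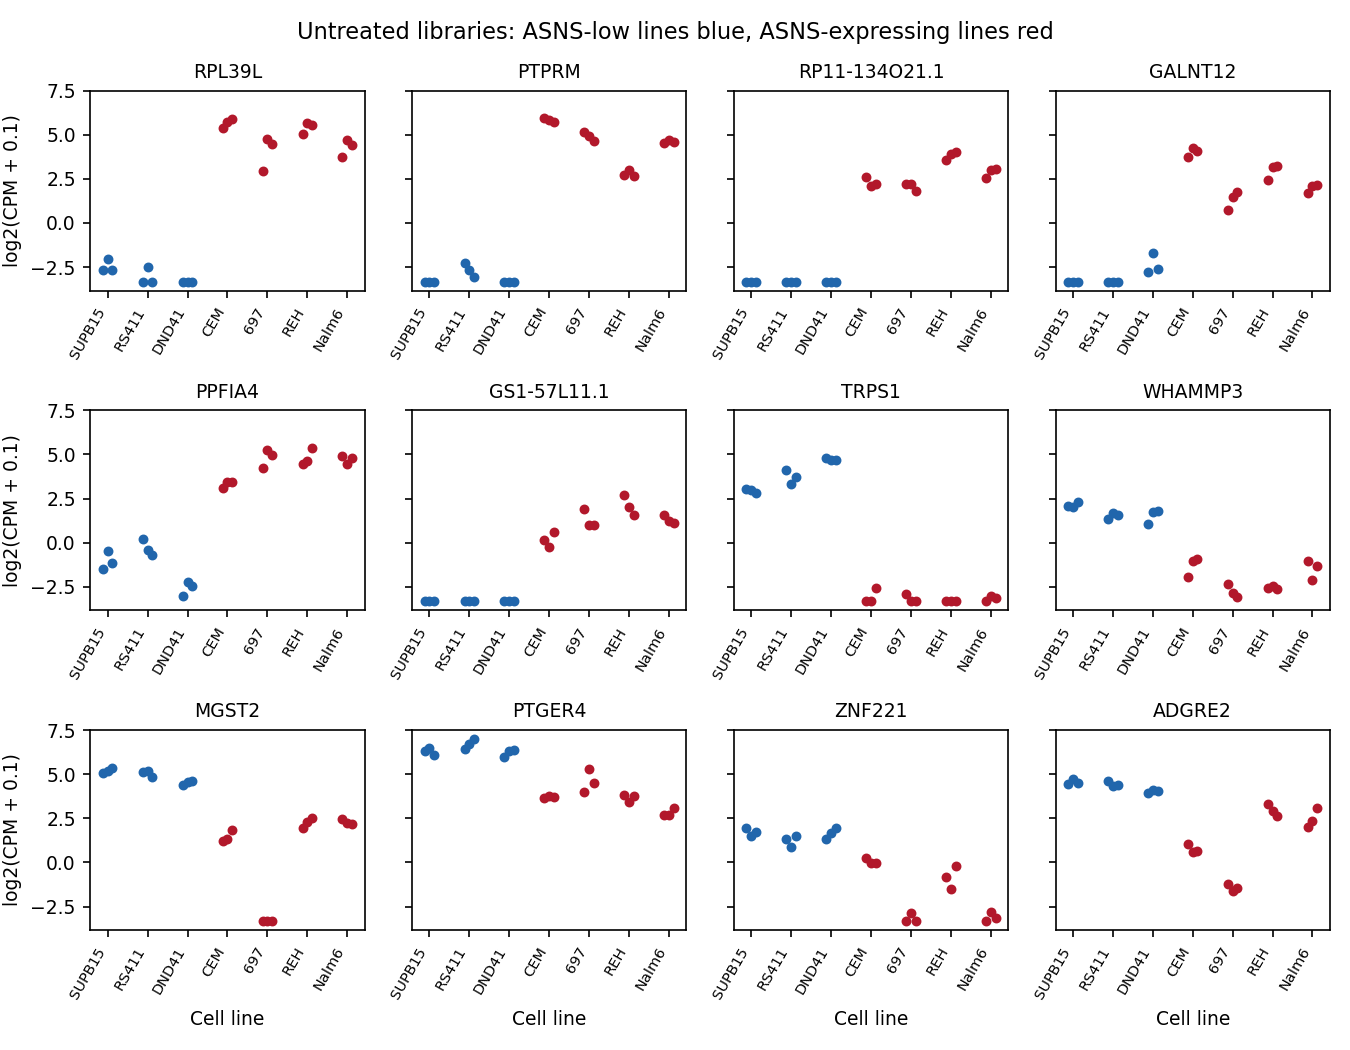
Untreated libraries of the 6 separating genes with the widest gaps in each direction as log2(CPM + 0.1), 3 points per line, low lines blue and expressing lines red. A value of 0 CPM sits at the bottom of each panel, as in all 9 low libraries of RP11-134O21.1.

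Among genes higher in the low lines, TRPS1 had the widest gap on the log2(CPM + 0.1) scale. This zinc finger repressor of the GATA class read 7.01 to 27.5 CPM in the low libraries (median 13) and at most 0.0672 CPM in the expressing libraries (median 0). SUPB15 had the lowest mean of the low lines (7.75 CPM) and DND41 the highest (26.1 CPM). CEM, the highest expressing line, had 0.0224 CPM, under the limit that 3 counts set, and no ratio is given. WHAMMP3, a transcribed pseudogene with close copies, read 1.98 to 4.86 CPM against 0.0189 to 0.436 CPM, and the nearest lines differed 8.4-fold. TRPS1 and WHAMMP3 were the 2 of 27 genes with every expressing library under 1 CPM.

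MGST2, a membrane enzyme that can join glutathione to leukotriene A4, read 21 to 40.8 CPM in the low libraries (median 32.9) and 0 to 5.52 CPM in the expressing ones (median 3.63), with 0 in all libraries of 697. PTGER4, the EP4 receptor for prostaglandin E2, read 61.5 to 127 CPM against 6.25 to 39.7 CPM (medians 83.8 and 13.1), and the nearest lines, DND41 and 697, differed 2.85-fold. ADGRE2, an adhesion receptor of leukocytes with close paralogs, read 15 to 26.8 CPM against 0.228 to 10 CPM. PLXND1, a semaphorin receptor, had means of 103 to 210 CPM in the low lines and 24.7 to 66.8 CPM in the others.

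BMF, a BH3-only protein that binds BCL2, read 6.12 to 29.9 CPM in the low libraries (median 12.9) and 0.134 to 6.08 CPM in the expressing ones (median 2.63). SUPB15 had the highest mean (26.2 ± 4.53 CPM, SD, n = 3) and CEM the lowest (0.201 ± 0.0702), and the nearest lines, DND41 and REH, differed 1.66-fold. CASP1, the caspase that activates interleukin-1 beta, had means of 17.9 to 83.3 CPM against 1.97 to 12.5 CPM. FBXO32, a substrate adaptor of a ubiquitin ligase, had 4.94 to 8.67 CPM against 0.106 to 3.42 CPM. The other low-high genes included ZNF221, UEVLD, CTA-292E10.6, MRPL41, IFRD1, MDFIC, CNDP2, FRMD4B, AKIP1, TRIM60P18, ANKRD28, TTC39C, POMZP3, MED30, DHRS4-AS1, CAP1 and LYPLAL1. MDFIC was at 0 in REH and Nalm6 and had 35 and 15.3 CPM in CEM and 697, and UEVLD was at 0 in REH alone, so the expressing group was not uniform either.

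The promoters of ASNS and of 3 separating genes are printed to show their CpG content, the sequence feature that DNA methylation acts on. Each is the 250 bases before the annotated start, 5′ to 3′ on the strand of the gene, from RefSeq on GRCh38.p14, a newer build than the hg19 of the counts, with every CpG in capitals. ASNS lies at chr7:97872409-97872658 on the minus strand and holds 24 CpG, PTPRM at chr18:7567066-7567315 on the plus strand with 42, BNIP3 at chr10:131981924-131982173 on the minus strand with 41, and PTGER4 at chr5:40679665-40679914 on the plus strand with 26.
ASNS: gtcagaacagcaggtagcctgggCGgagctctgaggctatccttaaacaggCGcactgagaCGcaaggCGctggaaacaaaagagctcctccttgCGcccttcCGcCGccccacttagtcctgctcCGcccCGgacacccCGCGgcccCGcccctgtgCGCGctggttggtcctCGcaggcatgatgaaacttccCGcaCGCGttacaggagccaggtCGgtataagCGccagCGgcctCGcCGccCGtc
PTPRM: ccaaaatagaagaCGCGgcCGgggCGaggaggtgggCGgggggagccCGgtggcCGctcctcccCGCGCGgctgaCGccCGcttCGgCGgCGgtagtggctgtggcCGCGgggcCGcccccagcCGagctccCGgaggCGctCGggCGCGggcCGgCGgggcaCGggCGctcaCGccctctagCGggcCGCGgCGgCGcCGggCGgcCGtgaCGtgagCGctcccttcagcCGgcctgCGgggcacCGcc
BNIP3: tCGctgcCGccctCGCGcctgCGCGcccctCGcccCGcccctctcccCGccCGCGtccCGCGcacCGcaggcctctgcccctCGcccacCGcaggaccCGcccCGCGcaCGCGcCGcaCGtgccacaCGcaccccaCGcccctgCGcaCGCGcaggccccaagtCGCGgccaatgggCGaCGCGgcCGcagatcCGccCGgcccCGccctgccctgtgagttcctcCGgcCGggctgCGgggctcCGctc
PTGER4: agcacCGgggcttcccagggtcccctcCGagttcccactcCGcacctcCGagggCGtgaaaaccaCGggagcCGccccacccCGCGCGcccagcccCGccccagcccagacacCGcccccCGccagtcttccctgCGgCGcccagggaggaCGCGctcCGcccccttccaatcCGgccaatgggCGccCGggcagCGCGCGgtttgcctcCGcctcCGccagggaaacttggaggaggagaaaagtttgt

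The ratio of observed to expected CpG was 0.9 in ASNS, 1.02 in PTPRM, 1.09 in BNIP3 and 0.82 in PTGER4. A RefSeq promoter was found for 37 of the 59 separating genes. All 22 such promoters of expressing-high genes had a ratio of at least 0.6, as did 12 of 15 (80%) of low-high genes and 77.4% of those of 11187 genes tested. The median number of CpG was 23.5 in the 22 expressing-high promoters, 22 in the 15 low-high ones and 21 over the genes tested. PTPRM and BNIP3, printed above, held the most CpG of the expressing-high promoters, and the low-high gene MRPL41 held 43. The C/EBP-ATF response element that ATF4 binds was searched on both strands as TGATGNAAN. ASNS holds the match TGATGAAAC, 68 bases before its start, and 0 of the 37 promoters held a match, compared with 1.47% of the genes tested. A match is a description of letters in this window. Of the 59 genes, 55 were found in RefSeq, and no 2 of them were neighbours there.

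Over the 7 untreated line means of log2(CPM + 0.1), the separating genes most like ASNS were GS1-57L11.1 (Pearson r 0.99), RP11-134O21.1 (0.974), PPFIA4 (0.959), PRRT4 (0.951) and RPL39L (0.93). The points share their libraries and depth with ASNS, and the genes were chosen to split the lines as ASNS does, so these values carry no p. Spearman's rho was highest for PRRT4 (0.929) and lowest for RPL39L (0.607). CEM was the lowest of the expressing lines in ASNS and the highest in RPL39L.

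The 21 libraries treated with L-asparaginase took no part in choosing the genes, although they come from the same lines. They check library error and not the choice of lines. The share of all genes that separate the treated libraries was not counted. Of the 59 genes, 40 also separated the treated libraries in the same direction: 25 of the 32 expressing-high genes and 15 of the 27 low-high genes. Unlike the untreated rule, this check set no lowest CPM for the higher group. Among wide gaps, 17 of 18 and 5 of 6 did so, the exceptions being PPFIA4 and ADGRE2. The treated libraries of PPFIA4 read 0 to 0.93 CPM in the low lines and 0.889 to 17.3 CPM in the expressing lines, and those of ADGRE2 met at 15.5 CPM. BNIP3 still separated the groups, at 0 to 10 CPM against 11.6 to 36.1 CPM. Among the low-high genes that no longer separated were CAP1, CNDP2, IFRD1, MDFIC and FBXO32.

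ASNS apart, genes of asparagine supply and amino acid stress mostly overlapped between the groups before treatment, as did nearly all genes tested. The 11 lists also held genes of mTORC1, autophagy, the BCL2 family and DNA methylation, and genes around ASNS on chromosome 7. Of the 241 genes tested across the lists, 1, BMF of the BCL2 family, separated all libraries. Over all genes tested, 0.164% (higher in the expressing lines) and 0.138% (higher in the low lines) did so. By line means, 4 of the listed genes (1.66%) were higher in every expressing line and 8 (3.32%) in every low line. The shares over all genes were 1.11% and 1.24%, a difference that was not tested. The 4 were PHGDH, the first enzyme of serine synthesis (116 to 155 CPM in the low and 188 to 282 CPM in the expressing lines), RRAGD and FNIP1, both of amino acid signalling to mTORC1, and SDHAF3. FNIP1 differed little, at 50.6 to 52.2 CPM in the low and 52.4 to 54.9 CPM in the expressing lines, and its libraries overlapped widely. The 8 included the amino acid transporter SLC7A6, the methionyl-tRNA synthetase MARS, BMF, and the autophagy genes RB1CC1 and SQSTM1. The others were ARPC1B, PDAP1 and PTCD1, which like SDHAF3 were listed as genes around ASNS. SQSTM1, a receptor for cargo of autophagy, had 63.9 to 100 CPM in the low lines and 29 to 51.2 CPM in the expressing lines.

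Other genes of asparagine handling varied by line rather than by group. ASRGL1, an asparaginase of human cells, was at 0 in SUPB15, DND41, 697 and Nalm6, and had 1.4 CPM in RS411, 7.04 in REH and 32.4 in CEM. ASS1, which joins citrulline and aspartate, had 283 and 253 CPM in SUPB15 and RS411 but 0.0232 CPM in DND41, and 4.31 to 145 CPM in the expressing lines. OAT, ornithine aminotransferase, had 42.8 to 114 CPM in 697, REH and Nalm6, 0.0455 CPM in CEM and at most 5.81 CPM in the low lines. SLC1A3, an aspartate and glutamate transporter, had at most 5.45 CPM in any line. In each of these genes the lines of the groups overlapped.

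Around ASNS on chromosome 7, 15 of 30 listed genes were tested, with a median log2 difference (expressing minus low) of -0.23, beside 0.011 over all genes. SDHAF3, an assembly factor of succinate dehydrogenase, was at 0 in SUPB15 and had 23.6 and 13.5 CPM in RS411 and DND41 and 24 to 38.4 CPM in the expressing lines. ARPC1B, PDAP1 and PTCD1 went the other way: ARPC1B had 70.9 to 89.7 CPM in the low and 36.8 to 60.6 CPM in the expressing lines. By line means, 1 of the 15 was higher in every expressing line and 3 in every low line. The shares over all genes were 1.11% and 1.24%, and the difference was not tested. In none of the 15 did all libraries of the groups separate. At 0.164% and 0.138% of all genes, so short a list would be likely to hold none. Among the 23 genes that write, read or erase DNA methylation, 0 separated the groups by line means. At the shares over all genes (1.11% and 1.24%) a list of this size would hold few or none. TET1, which oxidizes methylated cytosine, had 33.4 CPM in DND41, 59.3 in CEM and 29.6 in REH, and 0.0762 to 2.28 CPM in the other 4 lines, across both groups.

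The test over all genes used 1 sum of counts per line, 3 against 4, in edgeR's quasi-likelihood test with Benjamini-Hochberg adjustment. It called 0 of 19529 genes (0%). At an unadjusted p under 0.05 it held 330 genes higher in the expressing and 259 higher in the low lines. Together these are a smaller share of the genes tested than the 0.05 that would pass if no gene differed. DESeq2 on the same sums called 124 genes, and limma voom on the 21 libraries, with the line as a random effect, called 61. Standard errors between lines were wide, such as 5.12 ± 2.55 (log2, SE) for OAT and 4.28 ± 3.71 for ASRGL1, and a count of 0 does not show that levels were alike. Of the 241 listed genes, 0 were called, and 3 higher in the expressing and 6 higher in the low lines had an unadjusted p under 0.05 (smallest adjusted p = 1). That too is a smaller share than 0.05. The medians of the lists lay between -0.25 for the BCL2 family and 0.22 for the methylation genes. Of the 26 enzymes of asparagine and glutamine, 22 stress response genes, 25 amino acid transporters, 26 enzymes of serine and one-carbon synthesis, 20 tRNA synthetases, 20 genes named in work on L-asparaginase, 30 of mTORC1, 15 of the BCL2 family and 29 of autophagy, 0 were called. The same was true of the 22 lineage and cell type markers tested. Lineage crosses the groups and its share in the values was not tested.

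A further question was whether the low lines answered the drug differently. The response, treated against untreated within each line, was compared between the groups over 21756 genes in edgeR with the line as a block. Responses were compared as signed log2 ratios, so that a smaller fall counts as a larger response. The term called 0 genes (0%) with a larger response in the expressing lines and 1 (0.0046%), ITM2A, in the low lines. At an unadjusted p under 0.05 it held 730 and 1051 genes. Together these are a larger share of the genes tested than 0.05, although only 1 gene passed after adjustment. ITM2A, a membrane protein of lymphocytes and cartilage, differed by -5.57 ± 0.482 (log2, SE; adjusted p = 0.0039, edgeR). This call rests on 1 treated library of RS411, at 3.79 CPM, whereas the other 5 RS411 libraries read at most 0.0564 CPM. Without that library and 2 other treated libraries (SUPB15 C and REH A), the difference was -0.68 with an adjusted p of 0.87. Of the 10 T-lineage markers, all but CD2 (log2 response -1.02) rose in RS411, by 0.42 (BCL11B) to 4.7 (CD3D). The library with ITM2A at 3.79 CPM, treated library B, was the only 1 of the 6 with none of them at 0. It had 0.928 CPM of CD3D beside 0 in the other 5. Summed over all 10 markers, treated libraries B and C both had 122 CPM. Leaving out LCK, which is also expressed in RS411 without treatment, the markers summed to 4.21 CPM in treated library B and to 1.55 to 2.75 CPM in the others. Their part in the result was not tested. ITM2A was highest in CEM, at 1560 to 2410 CPM untreated.

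ASNS itself, given as a description, had log2 responses of 0.23 in SUPB15, -0.01 in RS411 and 0.5 in DND41, and of 2.53 in CEM, 2.37 in 697, 1.59 in REH and 0.54 in Nalm6. For other targets of amino acid stress the difference between the groups did not pass the test. DDIT3, which encodes the stress factor CHOP, had 3.38, 2.85 and 1.07 in SUPB15, RS411 and DND41, and 1.57 to 2.76 in the expressing lines (difference -0.24 ± 0.479, adjusted p = 0.92). For the other stress genes the differences were 0.22 ± 0.977 for TRIB3, -0.36 ± 0.431 for SESN2, -0.63 ± 0.794 for CHAC1, 0.6 ± 0.379 for PSAT1, 0.31 ± 0.293 for PHGDH, 0.46 ± 0.438 for SLC7A11 and -0.04 ± 0.225 for ATF4. Adjusted p lay between 0.69 and 0.98 (edgeR), and with standard errors of this size no difference of about 1 log2 unit can be told from 0 in TRIB3 or CHAC1.

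In 999 of the 21756 genes (4.59%) every expressing line had a higher signed log2 response than every low line, and in 890 (4.09%) the reverse held. Of 25 stress response genes, ATF3, a stress-induced transcription factor, was the only such gene, no larger a share than over all genes. Untreated ATF3 means were 6.74 to 13 CPM in the low and 9.23 to 26.1 CPM in the expressing lines. Treated ATF3 had means of 38.5 to 41.6 and 14.4 to 51.7 CPM, so its levels overlapped in both states. Its log2 response was 2.57, 2.18 and 1.64 in SUPB15, RS411 and DND41, and 1.09 in CEM, -0.31 in 697, 0.73 in REH and 0.6 in Nalm6 (difference -1.61 ± 0.329, adjusted p = 0.31). Among the genes with the smallest p, JUN, an AP-1 factor, had 2.01, 1.77 and 3.34 in the low lines and -0.97 to 0.66 in the expressing lines (-2.59 ± 0.426, adjusted p = 0.19). RASSF1, a tumour suppressor, had 1.38, 1.28 and 1.68 against -0.07 to 0.24 (-1.44 ± 0.176, adjusted p = 0.061). CDKN2AIP, a regulator of p53, had 1.71, 1.3 and 1.47 against -0.12 to 0.65 (-1.41 ± 0.212, adjusted p = 0.19).

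The reverse order was seen in TGIF1, a corepressor of TGF-beta signalling, with -0.02, -0.4 and -0.11 in the low lines against 0.72 to 1.16 (1.19 ± 0.196, adjusted p = 0.19). MEX3A, an RNA-binding protein, had -1.74, -1.68 and -2.26 against -0.83 to -0.21 (1.42 ± 0.236, adjusted p = 0.19). In NCKAP1 (adjusted p = 0.084) and KCNJ2 (0.19) the lines of the groups overlapped, and NCKAP1 rests on the third treated library of SUPB15, at 4.08 CPM beside 0 in its other SUPB15 libraries.

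**Figure D4:**
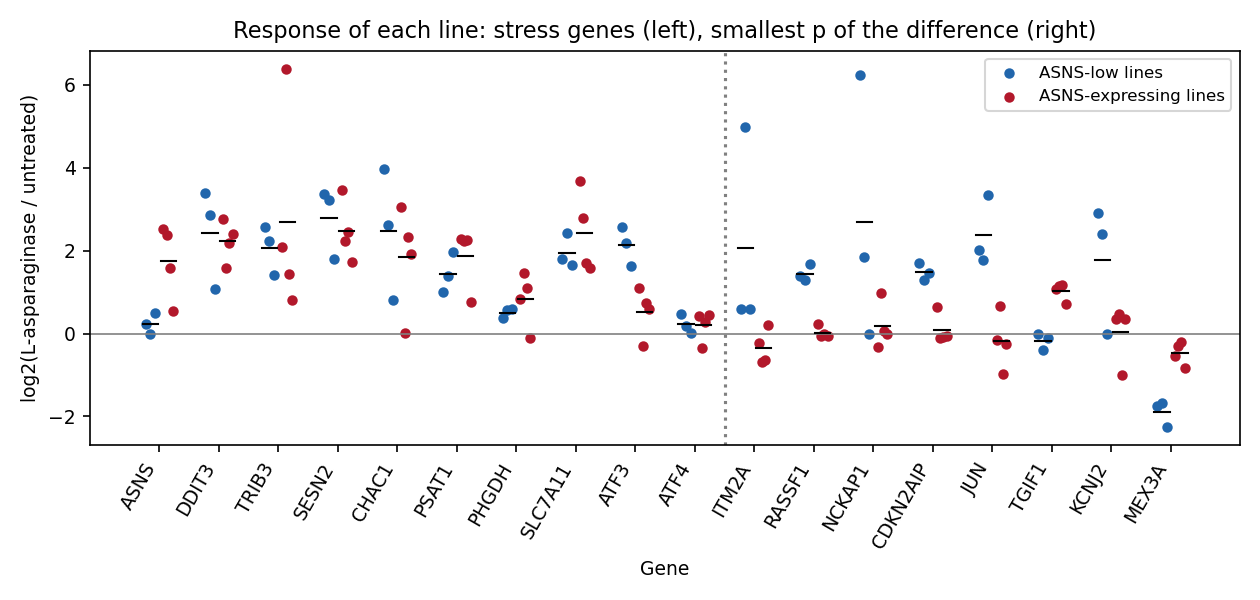
Log2 ratio of treated to untreated level in each line for ASNS and 9 stress genes (left of the dotted line) and the 8 genes with the smallest p of the difference between the groups (right), low lines blue, expressing lines red, group means as bars. JUN, RASSF1 and CDKN2AIP sit between 1.28 and 3.34 in the low lines and between -0.97 and 0.66 in the expressing lines.

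Of the separating genes, 0 of 59 were called for a different response. Responses of the groups did not overlap in 3 of the 32 expressing-high genes (BNIP3, MTSS1L and SPATA13), all with the lower values in the expressing lines (9.38%, beside 4.09% of all genes), and in 0 of the 27 low-high genes. BNIP3 had -3.59, -2.32, -2.98 and -1.38 in CEM, 697, REH and Nalm6, and -0.34 in SUPB15, the low line in which it was detected in every library (difference -2.94 ± 0.764, adjusted p = 0.44). The median response of the expressing-high genes was -0.18 in the expressing and 0.07 in the low lines, and that of the low-high genes 0.19 and 0.23. A response shares the untreated libraries that chose these genes, so its direction is not independent of the choice.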

How the data were processed

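RNA sequencing counts of 7 cell lines were used, 3 untreated and 3 treated libraries each. The authors deposited whole-number read counts per gene symbol, 1 table per line. The submitters' processing notes name hg19; the aligner, counter, annotation and use of strand are not stated in these sources, and overlapping, antisense and near-identical genes are uncertain. Tables were joined on the symbol (50624 genes, leaving out 26 to 28 date-like symbols a table). The columns of 697 carry numbers; the letters A, B and C of the other lines are not in the labels. Counts of libraries of a line differed beyond sampling noise (lowest chi-square 18.9 per degree of freedom).

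CPM values were scaled by TMM, the 21 untreated and the 21 treated libraries separately. Counts were summed per line (and treatment), filtered with filterByExpr (minimum count 10) and tested with edgeR 4.0.16 (glmQLFit, glmQLFTest) in R 4.3.3, with Benjamini-Hochberg adjustment and a threshold of 0.05. The response model held line, treatment and treatment by group. ASNS was not tested. Alternatives were DESeq2 1.42.0, limma 3.58.1 voom, RLE scaling, no filter, other limits, B-precursor lines alone, a lineage term, and leaving out lines or libraries. Both edgeR models were tested on simulated data. At the spread of these lines the untreated model missed most of the changes set. Where genes were called, the false share lay somewhat over the threshold in both models. With 3 against 4 lines, p-values measure only the spread between these lines.

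Genes named were the 12 widest gaps in each direction on log2(CPM + 0.1), up to 3 members of each list with the largest difference, the 5 most like ASNS, the 8 smallest p of the response and 10 stress genes. Other separating genes, and list members that separate by line means, were named after their values were seen, and some separating genes are not reported here by name. The members and lists were chosen with earlier results of these data known.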

Additional observations from a re-analysis of the deposited data

Results flagged for a closer look

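Of 60 genes examined (the 59 and ASNS), 5 had 1 expressing line far from the other 3 in its untreated level. This rests on Dixon's test at the 95% level, applied to line means as log2(CPM + 0.1). On that scale a level of 0 CPM lies far from the others, and flags on plain CPM were not counted. Chance gives about 1 in 20, but the genes were chosen on the same untreated levels, so this rate cannot be assumed for them. ALKBH3 was highest in Nalm6, at 48.3 CPM, beside 36.4 to 37.1 CPM in CEM, 697 and REH. PPFIA4 was lowest in CEM, at 10.1 CPM, beside 26.5 to 29.5 CPM. MED30 was lowest in 697, at 18.1 CPM, beside 31 to 34.4 CPM. MGST2 was at 0 CPM in 697, beside 2.71 to 4.81 CPM. UEVLD was at 0 CPM in REH, beside 6.42 to 9.08 CPM. These lines stay on their side of the low lines in all 5 genes.

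The response of ITM2A differed between the groups by -5.57 log2 units (edgeR's interaction term). Its value without the treated library of RS411 at 3.79 CPM, and without 2 other treated libraries, was -0.68.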

How the results depend on the processing

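The untreated comparison called 0 genes in edgeR under RLE scaling, no filter, a lineage term, B-precursor lines alone and every left-out line or library set. DESeq2 called 124 (94 higher in the expressing lines, 30 in the low), and limma voom called 61 without and 27 with the replicate block; the cause was not tested. Libraries with the same number or letter did not all deviate together (lowest correlation -0.13, median 0.39 over 36 pairs, beside a median of -0.17 over 72 pairs of different numbers), so the numbers were not taken to pair the samples. As a hint from the data, 20 of 21 libraries correlated best with their own number. The response comparison called 1 gene, and 369 in DESeq2 (91 larger in the expressing lines, 278 in the low). Voom over 42 libraries with the replicate block called 1537. That fit counts the libraries of a line as replicates, although the lines are the units. Its count is therefore not comparable with the others. The response comparison called 2 genes with RLE factors, 231 with no filter, 0 in B-precursor lines alone and 0 to 2 without each line. It called 0 without the treated libraries SUPB15 C, REH A and RS411 B, a setting chosen after seeing the data.

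The 59 separating genes became 460 on line means, 149 without the 5 first libraries, 601 in B-precursor lines alone, 110 (without REH) to 375 (without DND41) with 1 line left out and 91, 93 and 178 with 1 replicate of every line left out (with fewer lines or libraries, fewer have to lie apart). Unscaled CPM gave 65, RLE 64, and floors of 0.5 and 5 CPM gave 65 and 42. The 24 wide gaps became 40 at a ratio of 1.5.

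Signs that turned, none of them called, were in the untreated fit ASS1 (1.81 and 1.75 in voom without and with the replicate block), ASPG (-1.89 in B-precursor lines, -0.61 with a lineage term), PIM1 (2.44 and 1.05), and, as ranges with 1 line left out, JDP2 (-0.08 to 1.62), GLDC (-1.76 to 1.7), LGR6 (-4.47 to 0.05), PIM1 (-4.43 to 2.1), HAP1 (-0.53 to 3.88) and SLC25A13 (-2.01 to 0.16). In the response they were DDIT3 (-0.9 to 0.27), CHAC1 (-1.45 to 0.16), ATF4 (-0.14 to 0.15) and TRIB3 (-0.64 to 0.85) with 1 line left out, TRIB3 with the replicate block (-0.14), and SLC7A11 in B-precursor lines (-0.08). Depth limits levels under about 0.04 CPM, where a line holds 3 counts or fewer.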
